A study of Mus musculus with 12 samples.

Results

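The collagen genes of the mouse pituitary were followed across 12 bulk RNA sequencing libraries. Members were all genes whose symbol has the form Col, a chain type number, the letter a and a chain number. This gave 44 genes of the 55421 gene IDs counted. The symbol rule uses no measured value, but the gene family was chosen with earlier results of these data known. All mice were C57BL/6 animals with a floxed Gpr101 gene (Gpr101 fl/fl), so the controls carry the floxed alleles too. They carried either Cga-ctrlAAV, a control virus, or Cga-creAAV, a virus for cre recombinase, and then received vehicle or AA14 for 1 week. The 4 groups of 3 libraries are called ctrl_vehicle, ctrl_AA14, cre_vehicle and cre_AA14, with the replicate numbers of the labels. The labels do not say which cells expressed cre, nor give the age of the mice. The pituitary was dispersed into cells before flow cytometry, and whether sorted or whole tissue was sequenced is not given in the sources used here. Nothing says that the libraries came from separate mice, and each p-value therefore speaks only for how far these libraries spread, which may be technical.

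Collagens are extracellular proteins made of intertwined chains, and each gene encodes a chain. Fibrillar collagens form the banded fibrils that give connective tissue its tensile strength. Type IV collagens form the sheet of the basement membrane around vessels and epithelial cords. Type VI collagens form beaded filaments between fibrils and cells. FACITs, fibril-associated collagens with interrupted triple helices, lie on the surface of fibrils. Transmembrane collagens stay in the plasma membrane or are shed from it, and multiplexins sit at basement membranes. In the pituitary, collagens lie around the fenestrated capillaries and between the hormone cells, and stromal and vascular cells are their main known sources. Gpr101 encodes an orphan G protein-coupled receptor.

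Type IV collagen genes lie in head-to-head pairs, 2 genes that start beside each other on opposite strands. In the GENCODE annotation of GRCm38, Col4a1 (chromosome 8, 11198423 to 11312826, minus strand) and Col4a2 (11312805 to 11449287, plus strand) overlap by 22 bases at their starts. Col4a6 and Col4a5 on chromosome X start 1308 bases apart. Col4a4 (chromosome 1, 82448423 to 82586849, minus strand) and Col4a3 (82586921 to 82722059, plus strand) are separated by 71 bases. That interval, chr1:82586850-82586920, is printed on the strand of Col4a4 because both genes took the same direction in the libraries below. Beside it stand the 100 bases before the start of Col23a1 (chr11:51289820-51289919), Col24a1 (chr3:145292372-145292471) and Col7a1 (chr9:108953486-108953585), all on the plus strand. Col24a1 and Col23a1 had the largest positive and negative fold changes with AA14 in control mice among members at a mean of 1 CPM or more (scaled counts, explained below), and Col7a1 the next positive one after Col20a1. Sequences are from RefSeq on GRCm38.p6, overlap no annotated exon and run 5′ to 3′. Capitals mark a TATA box, a CCAAT box or a GC box, spelled out below, on either strand.
Col4a4 to Col4a3: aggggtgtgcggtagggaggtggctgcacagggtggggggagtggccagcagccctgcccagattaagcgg
Col23a1: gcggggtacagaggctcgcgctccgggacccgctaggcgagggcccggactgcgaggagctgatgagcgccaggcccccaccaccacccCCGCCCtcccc
Col24a1: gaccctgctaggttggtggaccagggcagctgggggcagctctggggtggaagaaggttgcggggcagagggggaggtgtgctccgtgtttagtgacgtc
Col7a1: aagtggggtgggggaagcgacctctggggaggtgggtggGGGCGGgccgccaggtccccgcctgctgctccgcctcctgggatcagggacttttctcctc
Neither the Col4a4 to Col4a3 interval nor the Col24a1 stretch holds any of the 3 motifs. Over the 250 bases before the start, on both strands, 38 windows of 35 collagen genes could be read from RefSeq. The TATA box TATAAA stood in 13.2% of them, against 12.4% of all 32851 promoter windows. The CCAAT box CCAAT stood in 34.2% against 33.8%, and the GC box GGGCGG in 57.9% against 32.7%. These letter matches describe the windows and are not evidence of binding.

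Totals ranged from 48693682 to 73388221 counts per library, and each member's depth is given below where it limits a value. Levels are given as CPM, counts scaled to library size, after TMM scaling, a correction for library composition. The defining genes of the labelled tissue were abundant, and 7 pituitary hormone genes, among them Gh, Prl and Pomc, held 17.6% to 30.8% of the counts. Gpr101, the targeted gene, was at 2.32 CPM on average in cre-virus and 5.18 CPM in control-virus libraries, with single libraries from 0.901 to 16.1 CPM. The mean difference of log2(CPM + 0.5), cre minus control, was -0.64, with p = 0.303 in an exact two-sided permutation test, so this gene did not separate the viruses. The 12 libraries did not all look alike. Malat1, an abundant nuclear noncoding RNA, was between 1105 and 1560 CPM in all 3 ctrl_AA14 libraries, cre_vehicle replicate 1 and cre_AA14 replicate 2. It was between 198.9 and 549 CPM in the other 7. In the same 5 libraries the log2 level relative to the mean over libraries decreased with transcript GC content (Spearman's rho -0.41 to -0.20 across genes), against 0.02 to 0.35 in the others. In control-virus mice this state and the treatment cannot be told apart. Libraries ctrl_vehicle replicate 3, ctrl_AA14 replicate 1 and cre_vehicle replicate 2 also had high levels of oligodendrocyte genes.

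Fibrillar genes were the largest class of collagen RNA in these pituitaries. The 11 fibrillar genes held 48.9% of all collagen CPM, the 6 type IV genes 16.1%, the 4 transmembrane genes 10.3% and the 6 beaded-filament genes 9.04%. FACITs (9 genes) held 7.41%, multiplexins (2 genes) 4.95%, the hexagonal-network genes of types VIII and X (3 genes) 2.29%, and types VII, XXVI and XXVIII together 1.03%. The sum over all 44 genes lay between 436 and 713 CPM, lowest in ctrl_AA14 replicate 2 and highest in ctrl_vehicle replicate 3. Of the 44 genes, 37 reached a mean of 1 CPM. Levels between genes were compared per kilobase of exon, with all annotated exons of a gene merged into 1 length. Col1a2, a chain of type I collagen, led with 9.11 CPM per kilobase, followed by Col6a1 with 6.03 and the transmembrane Col13a1 with 5.21. Col4a1 had 4.44, Col27a1 3.53, Col1a1 3.47 and Col3a1 3.34 CPM per kilobase. The 7 genes below 1 CPM were Col6a4, Col6a5, Col6a6, Col9a1, Col19a1, Col22a1 and Col10a1. In that order up to Col22a1 they had 551, 348, 150, 681, 643 and 219 counts over the 12 libraries. Col10a1, the collagen of hypertrophic cartilage, had 41 counts in all 12 libraries and was the only member removed by the filter on low counts. The other 43 entered each of the 5 comparisons in the edgeR test used throughout.

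**Figure D1:**
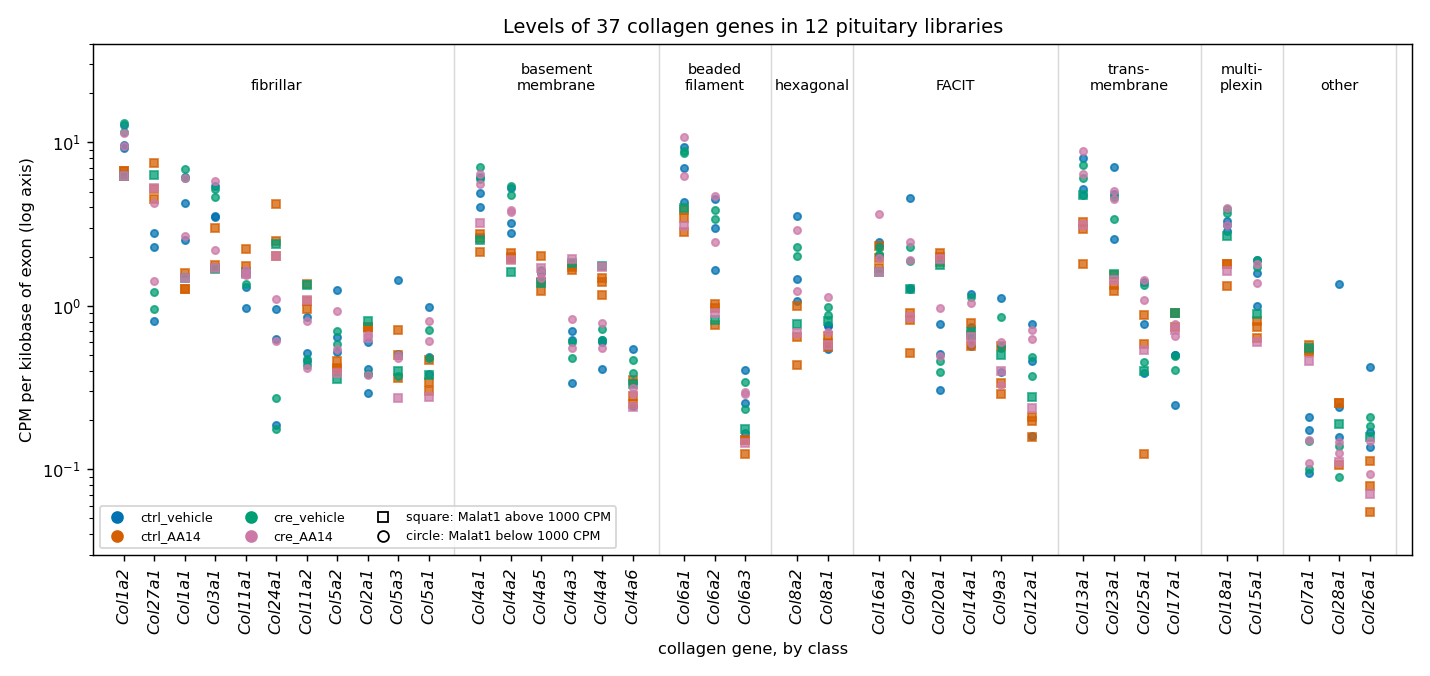
Level of each of the 37 collagen genes at a mean of 1 CPM or more, as CPM per kilobase of exon on a log axis, ordered by class. Each point is 1 library, coloured by group, with squares for the 5 libraries above 1000 CPM of Malat1. Col1a2 has the highest mean, 9.11 CPM per kilobase.

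With AA14 in control-virus mice, 8 of 9 FACITs, 5 of 6 beaded-filament genes, both multiplexins and 3 of 4 transmembrane genes had negative fold changes. Fibrillar genes (6 of 11 negative) and type IV genes (3 of 6) were split. A set led by Col24a1, Col20a1, Col7a1, Col4a3, Col27a1 and Col4a4 had higher levels. No collagen gene passed the test. In edgeR's quasi-likelihood test with Benjamini-Hochberg adjustment, 0 of 43 were past 0.05, the lowest adjusted p was 0.141, and 0.00442% of all 22630 genes passed. At an unadjusted p under 0.05 stood 23 members, 53.5% of them, against 23.8% of all genes tested. Of these, 16 had lower levels (15.8% of all genes did) and 7 higher (8.03%). The AA14 and vehicle libraries did not overlap for 17 lower members (20.1% of all genes) and 10 higher members (17.6%). The log2 fold change, AA14 minus vehicle, was negative for 31 of 43 members and had a median of -0.75, against -0.02 over all genes. With upper-quartile size factors the median of all genes became 0.11 and that of the members -0.60. Without ctrl_vehicle replicate 3 the count at an unadjusted p under 0.05 was 7 of 43, or 16.3% against 13.9% of all genes in that fit, and the median -0.23. Without ctrl_AA14 replicate 3 it was 13, or 30.2% against 13.6%. Without the 3 libraries rich in oligodendrocyte genes it was 5 of 42, or 11.9% against 10.4% of all genes. Other models called members at the same threshold. There were 10 of 43 when only these 6 libraries were fitted, or 23.3% against 10.6% of all genes. Limma-voom with quality weights called 11 of 43, or 25.6% against 15.1%. DESeq2 called 13 of 40 with an adjusted p, or 32.5% against 13.4%. The calls went both ways, 4 higher and 6 lower with only these libraries, 7 and 4 in limma-voom, and 6 and 7 in DESeq2. Col4a3, Col4a4, Col7a1, Col18a1, Col20a1 and Col23a1 were called by each of these 3 models.

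Among the fibrillar genes, the main chains of types I and III were lower in each ctrl_AA14 library than in any ctrl_vehicle library. Col1a2 was measured at 120.3, 115 and 158 CPM in the ctrl_vehicle libraries and at 77.5, 83.1 and 83.6 CPM with AA14. It was at 77.5, 143 and 163 CPM in cre_vehicle and at 118, 77.1 and 143 CPM in cre_AA14. Replicate 1 of cre_vehicle and replicate 2 of cre_AA14 were as low as the ctrl_AA14 libraries. The log2 fold change in control mice was -0.69 ± 0.28 (SE), with an adjusted p of 0.176 in edgeR. Col1a1, the other type I chain (chromosome 11, 94936224 to 94953042), was at 27.8, 16.6 and 40.5 CPM in ctrl_vehicle, 8.33, 8.30 and 10.5 in ctrl_AA14, 9.71, 39.5 and 44.9 in cre_vehicle, and 17.5, 9.68 and 39.9 in cre_AA14. It is added to the genes of the naming rule after its values were seen, and its fold change was -1.65 ± 0.59 with an adjusted p of 0.148 in edgeR. Col3a1, the type III chain of elastic and reticular tissue, was at 34.9, 34.2 and 53.2 CPM in ctrl_vehicle and 17.3, 16.8 and 29.3 in ctrl_AA14. The cre_vehicle libraries had 16.5, 45.4 and 51.1 CPM of it and the cre_AA14 libraries 21.7, 16.7 and 56.6. The groups of control mice did not overlap, with a fold change of -0.95 ± 0.50. Col5a2, a type V chain that helps to set fibril diameter, was at 5.03, 6.15 and 12 CPM in ctrl_vehicle and 3.87, 3.98 and 4.40 in ctrl_AA14. Its other libraries had 3.42, 6.74 and 5.6 CPM in cre_vehicle and 5.25, 3.70 and 8.95 in cre_AA14, again lowest in replicate 1 of the former and replicate 2 of the latter. Col5a3 rested on a single library, since ctrl_vehicle replicate 3 had 9.84 CPM and the other 11 libraries between 1.87 and 4.86. Without that library its fold change in control mice went from -0.64 to 0.06.

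The 2 fibrillar collagens with short triple helices, Col27a1 and Col24a1, took the opposite direction. Col27a1, a chain known from cartilage, was at 29.7, 36.6 and 10.5 CPM in ctrl_vehicle and 67.2, 58.3 and 97.2 in ctrl_AA14. It was at 81.8, 12.4 and 15.9 CPM in cre_vehicle and 55.6, 68.2 and 18.4 in cre_AA14. Its groups in control mice did not overlap, and cre_vehicle replicate 1 stood far above both other libraries of its group. The fold change in control mice was 1.54 ± 0.72, with an adjusted p of 0.22 in edgeR. Col24a1 (chromosome 3, 145292472 to 145552011) was at 4.80, 7.25 and 1.41 CPM in ctrl_vehicle and 19.0, 15.3 and 32.0 in ctrl_AA14. The cre_vehicle libraries had 18.2, 1.35 and 2.08 CPM and the cre_AA14 libraries 8.39, 15.5 and 4.67. This is the widest range of any member at 1 CPM or more, 23.7-fold between the highest and the lowest library, on 101 to 2140 counts. Its fold change in control mice was 2.30 ± 0.92, with an adjusted p of 0.173 in edgeR. Col2a1, Col11a1 and Col11a2, chains of cartilage fibrils, also had positive fold changes of 0.76, 0.53 and 0.89. Col11a1 was at an unadjusted p of 0.0224, although its groups overlapped. Col5a1, the remaining fibrillar gene, had a fold change of -0.75 with overlapping groups. Markers of cartilage and bone were too low to show whether they varied with these genes, which was not tested. The 9 of the list, Acan and Comp among them, had means below 1 CPM and summed to 0.227 to 6.20 CPM per library.

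The type IV chains split by gene pair. Col4a1 and Col4a2, which form the general basement membrane network, were lower with AA14 in control mice. Col4a3 and Col4a4, chains of the specialised network of kidney and lung, were higher, and Col4a5 and Col4a6 showed overlapping groups. Col4a1 was at 36.6, 30.0 and 45.6 CPM in ctrl_vehicle, 15.9, 20.6 and 19.4 in ctrl_AA14, 18.9, 44.6 and 52.5 in cre_vehicle, and 41.5, 23.8 and 48.2 in cre_AA14. Col4a2 was at 21.2, 18.5 and 34.7 CPM in ctrl_vehicle, 13.2, 12.7 and 13.9 in ctrl_AA14, 10.6, 31.6 and 35.6 in cre_vehicle, and 25.5, 12.7 and 24.7 in cre_AA14. Both genes had no overlap between the control-virus groups, with fold changes of -1.01 ± 0.35 and -0.90 ± 0.41 and adjusted p of 0.146 and 0.214 in edgeR. Col4a3 was at 6.12, 6.98 and 3.38 CPM in ctrl_vehicle and 17.2, 17.8 and 16.6 in ctrl_AA14. It was at 18.1, 4.80 and 6.03 CPM in cre_vehicle and 8.24, 19.4 and 5.52 in cre_AA14. Col4a4 was at 6.57, 6.34 and 4.38 CPM in ctrl_vehicle and 15.6, 14.9 and 12.3 in ctrl_AA14. It was at 18.6, 6.52 and 7.63 CPM in cre_vehicle and 8.28, 18.3 and 5.84 in cre_AA14. For both, the 5 libraries rich in Malat1 lay above the other 7. The fold changes in control mice were 1.65 ± 0.55 and 1.31 ± 0.46, with adjusted p of 0.141 and 0.146 in edgeR. Col4a5 held between 8.29 and 13.6 CPM in all 12 libraries, the narrowest range of any member at 1.64-fold, and its fold change in control mice was 0.06 ± 0.20. Col4a6 was at 1.95, 2.71 and 4.32 CPM in ctrl_vehicle, 2.82, 1.99 and 2.24 in ctrl_AA14, 2.67, 3.09 and 3.74 in cre_vehicle, and 2.30, 1.92 and 2.5 in cre_AA14. Exons of Col4a3 overlap a processed transcript on the other strand by 563 bases, and the strand setting of the counting is not given in the sources used here.

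**Figure D2:**
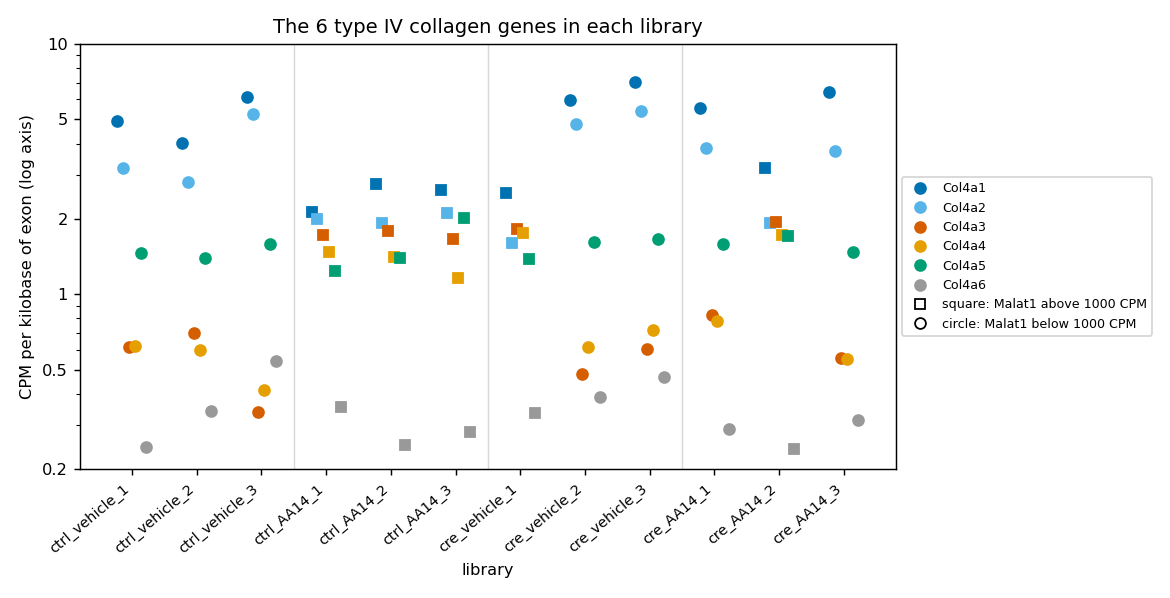
CPM per kilobase of exon (log axis) of the 6 type IV collagen genes in each of the 12 libraries, with squares for the 5 libraries above 1000 CPM of Malat1. Col4a3 and Col4a4 are highest and Col4a1 and Col4a2 lowest in those 5, while Col4a5 spans 8.29 to 13.6 CPM before division by length.

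The ratio between chains that assemble together also varied between libraries. Per kilobase, Col1a1 stood at 0.189 to 0.238 of Col1a2 in the 5 libraries rich in Malat1 and at 0.274 to 0.530 in the other 7. Col6a1 stood at 2.75 to 4.87 times Col6a2 in those 5 and at 2.07 to 2.58 times in the others. Col4a1 to Col4a2 ranged from 1.07 to 1.73 with overlap between the 2 sets of libraries, as did Col5a1 to Col5a2, from 0.595 to 1.21. Col9a2 to Col9a3 ranged from 0.917 to 5.87. Col4a3 to Col4a1, a ratio added after the values were seen, was 0.609 to 0.814 in the 5 libraries and 0.0554 to 0.174 in the others. The size of these ratios depends on the exon lengths, 4.38 kb for Col6a1, 8.33 for Col6a2, 6.56 for Col1a1 and 12.4 for Col1a2. In CPM, Col6a1 was at 1.45 to 2.56 times Col6a2 in the 5 libraries and 1.09 to 1.36 times in the others. Col1a1 was at 0.09985 to 0.126 of Col1a2 in CPM in the 5 and 0.145 to 0.28 in the others.

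Of the beaded-filament genes, Col6a1 and Col6a2 were lower in the same libraries as type I. Col6a4 was higher in them, on only 4 to 85 counts per library. Col6a1 was at 30.6, 18.8 and 41.0 CPM in ctrl_vehicle, 12.4, 15 and 16.9 in ctrl_AA14, 17.5, 37.7 and 38.9 in cre_vehicle, and 27.4, 13.5 and 47.4 in cre_AA14. Col6a2, which joins it in the type VI monomer, was at 25.0, 13.9 and 37.6 CPM in ctrl_vehicle and 8.57, 6.32 and 8.08 in ctrl_AA14. It was at 6.83, 28.4 and 32.0 CPM in cre_vehicle and 20.3, 7.52 and 39.4 in cre_AA14. The control-virus groups did not overlap for either gene, with fold changes of -1.03 ± 0.44 and -1.74 ± 0.63 and adjusted p of 0.192 and 0.151 in edgeR. Col6a3, the third chain of the classical monomer, was at 3.04, 1.99 and 4.86 CPM in ctrl_vehicle and 1.81, 1.47 and 1.81 in ctrl_AA14. The cre_vehicle libraries had 2.10, 4.09 and 2.80 CPM and the cre_AA14 libraries 3.57, 1.74 and 3.44, and its fold change in control mice was -0.96 ± 0.40. Its alternatives Col6a4, Col6a5 and Col6a6 had means of 0.705, 0.424 and 0.188 CPM. Col6a5 was at 2.42 CPM in ctrl_vehicle replicate 3 and at most 0.492 CPM elsewhere.

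Among the FACITs, Col20a1 was higher and Col9a2 and Col12a1 lower with AA14 in control mice. Col20a1 was at 3.97, 2.61 and 1.58 CPM in ctrl_vehicle and 10.9, 10.2 and 9.50 in ctrl_AA14. It was at 9.16, 2.03 and 2.35 CPM in cre_vehicle and 4.98, 9.90 and 2.53 in cre_AA14. The control-virus groups did not overlap, and the fold change was 1.91 ± 0.63 with an adjusted p of 0.141 in edgeR. Col9a2, a chain of type IX collagen, was at 3.90, 3.99 and 14.2 CPM in ctrl_vehicle, 2.55, 1.60 and 2.78 in ctrl_AA14, 3.92, 5.82 and 7.04 in cre_vehicle, and 7.64, 2.63 and 5.93 in cre_AA14. Its fold change in control mice was -1.67 ± 0.55, with an adjusted p of 0.141 in edgeR. Col12a1, a FACIT of tendon and fascia, was at 6.99, 2.43 and 11.8 CPM in ctrl_vehicle and 3.19, 2.39 and 3.01 in ctrl_AA14. These groups overlapped through ctrl_vehicle replicate 2. Its cre_vehicle libraries had 4.21, 7.43 and 5.66 CPM and its cre_AA14 libraries 9.60, 3.61 and 10.8. Col16a1, the FACIT of highest mean level, was at 16.5, 13.5 and 15.9 CPM in ctrl_vehicle and 15.6, 13.3 and 11.6 in ctrl_AA14. It was at 10.8, 15.5 and 14.0 CPM in cre_vehicle and 24.5, 10.9 and 13.2 in cre_AA14, so its groups overlapped throughout. Col9a3 ranged from 1.11 to 4.31 CPM, with its highest value in ctrl_vehicle replicate 3. Its 3 cre_AA14 libraries had 2.33, 1.54 and 1.26 CPM. Col14a1 ranged from 3.96 to 8.24 CPM with a fold change of -0.30. Col9a1, Col19a1 and Col22a1 had means of 0.877, 0.802 and 0.26 CPM.

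Of the 4 transmembrane genes, 3 had lower means with AA14 in control mice and Col17a1 a higher one. Col23a1 (chromosome 11, 51289920 to 51583918) was at 14.8, 27.7 and 40.7 CPM in ctrl_vehicle and 8.80, 7.64 and 7.05 in ctrl_AA14. It was at 9.0, 26.5 and 19.5 CPM in cre_vehicle and 28.9, 8.27 and 25.8 in cre_AA14. The fold change in control mice was -1.82 ± 0.51, the lowest unadjusted p of any member at 0.00424, with an adjusted p of 0.141 in edgeR. Col13a1, a collagen of cell adhesions and the neuromuscular junction, was at 24.0, 37.1 and 21.9 CPM in ctrl_vehicle, 13.6, 15 and 8.33 in ctrl_AA14, 21.9, 33.6 and 27.8 in cre_vehicle, and 40.7, 14.4 and 29.5 in cre_AA14. Its fold change was -1.17 ± 0.37, with the groups apart. Col25a1, which is expressed in neurons and was fixed as a pituicyte marker, was at 5.03, 10.1 and 18.2 CPM in ctrl_vehicle and 11.3, 7.61 and 1.62 in ctrl_AA14. It was at 5.2, 17.4 and 5.88 CPM in cre_vehicle and 18.6, 6.91 and 14.1 in cre_AA14, with overlap between all groups. Col17a1, a collagen of the hemidesmosome, was at 3.00, 3.01 and 1.5 CPM in ctrl_vehicle and 5.46, 4.44 and 5.42 in ctrl_AA14. It was at 5.40, 2.45 and 2.95 CPM in cre_vehicle and 4.62, 4.28 and 3.90 in cre_AA14. Its fold change in control mice was 1.03 ± 0.35 and its groups did not overlap.

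Both multiplexins were lower. Col18a1, the precursor of endostatin, was at 21.9, 20.2 and 23.1 CPM in ctrl_vehicle and 12.6, 12.6 and 9.34 in ctrl_AA14. It was at 18.7, 25.8 and 27.3 CPM in cre_vehicle and 27.7, 11.5 and 22.0 in cre_AA14. The fold change in control mice was -0.92 ± 0.28, with an adjusted p of 0.141 in edgeR. Col15a1, named outside the rule, ranged from 6.35 to 12.1 CPM in ctrl_vehicle and from 4.01 to 5.09 in ctrl_AA14, with a fold change of -1.04. Col8a2, a network collagen of Descemet's membrane, was at 6.58, 4.83 and 15.8 CPM in ctrl_vehicle, 2.90, 4.46 and 1.96 in ctrl_AA14, 3.5, 9.08 and 10.2 in cre_vehicle, and 5.51, 3.06 and 13.1 in cre_AA14. Its control-virus groups did not overlap, while those of Col8a1, between 4.26 and 8.90 CPM in all libraries, did. Col7a1, the anchoring fibril of skin (chromosome 9, 108953586 to 108984875), was at 1.8, 2.15 and 0.975 CPM in ctrl_vehicle and 5.41, 5.92 and 5.52 in ctrl_AA14. It was at 5.70, 1.03 and 1.54 CPM in cre_vehicle and 1.55, 4.71 and 1.13 in cre_AA14. Its fold change in control mice was 1.77 ± 0.67, with an adjusted p of 0.16 in edgeR. Col26a1 was at 1.12, 1.38 and 3.46 CPM in ctrl_vehicle, 0.912, 0.644 and 0.449 in ctrl_AA14, 1.29, 1.70 and 1.51 in cre_vehicle, and 0.766, 0.58 and 1.22 in cre_AA14. The AA14 libraries lay below the vehicle libraries of the same virus in both kinds of mice. The adjusted p in edgeR was 0.141 in control-virus and 0.9999 in cre-virus mice. Col28a1, a collagen of peripheral nerve, had 6.68 CPM in ctrl_vehicle replicate 3 and between 0.442 and 1.24 CPM in the other 11. Without that library its fold change in control mice went from -1.52 to 0.04.

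**Figure D3:**
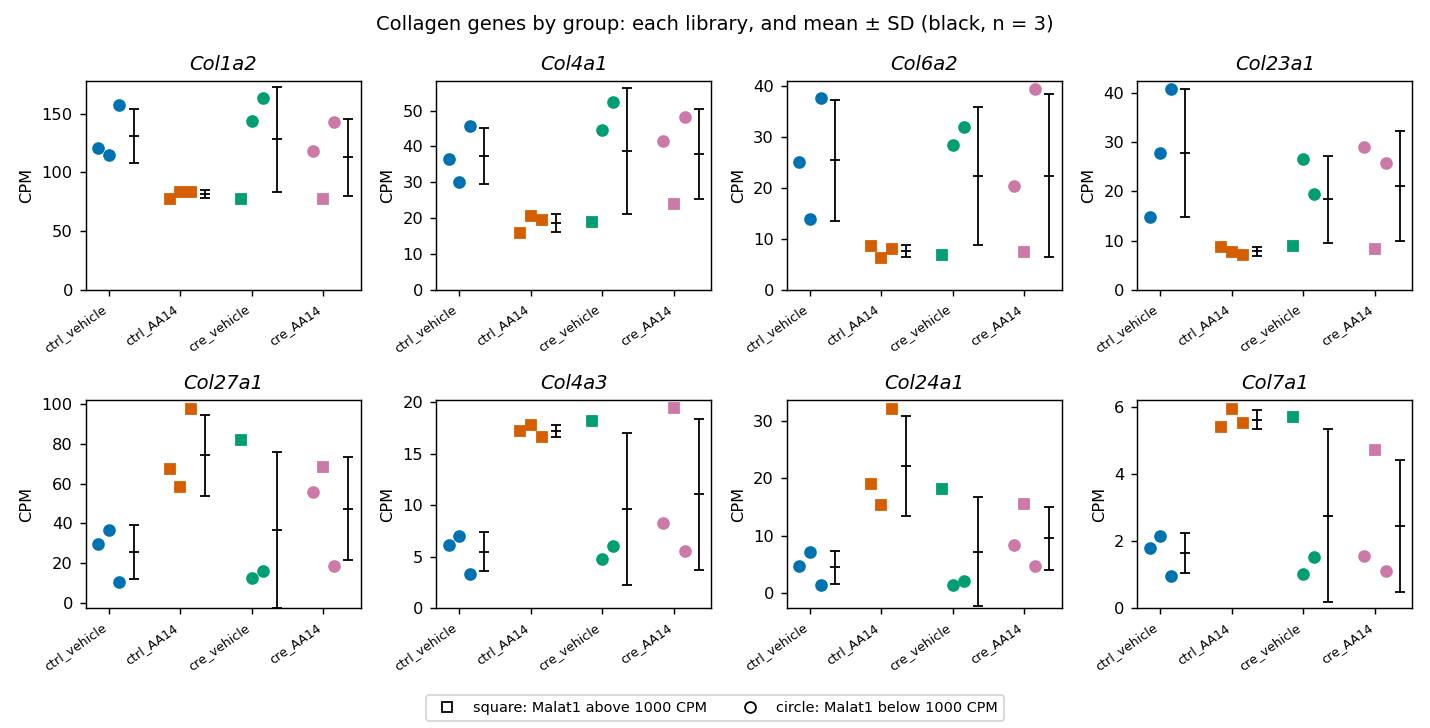
CPM of selected collagen genes by group, with every library as a point, squares for the 5 libraries above 1000 CPM of Malat1, and black bars for the mean ± SD of 3 libraries. In cre_vehicle and cre_AA14 the single square lies near the ctrl_AA14 libraries, for Col1a2 at 77.5 and 77.1 CPM. Every gene shown is one for which the 5 libraries do not overlap the other 7, so the side of the squares follows from the genes shown. Of the 44 members, 25 do not separate in this way.

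The members were also described by the Malat1 level of the libraries in place of treatment. In the 5 libraries above 1000 CPM, 11 members were lower than in all other 7 (13.1% of all genes were). They were Col1a1, Col1a2, Col4a1, Col4a2, Col5a2, Col6a1, Col6a2, Col8a2, Col15a1, Col18a1 and Col23a1. Another 8 were higher than in all other 7 (9.23% of all genes), namely Col4a3, Col4a4, Col6a4, Col7a1, Col11a2, Col20a1, Col24a1 and Col27a1. The remaining 25 did neither. The 5 libraries include all 3 of ctrl_AA14, and the 7 all of ctrl_vehicle, so every member of either set is also without overlap in control mice, and no test was made of the division. Of 17 lower and 10 higher members without overlap in control mice, 11 and 8 fell into these 2 sets. Over all genes tested, 2973 of 4559 lower and 2088 of 3976 higher genes did. Entry into the sets also required cre_vehicle replicate 1 and cre_AA14 replicate 2 to lie on the side of ctrl_AA14. Their place there follows from the rule and is not a result. The Malat1 state was also put as a term in the edgeR model, a choice made after the data were seen. For AA14 in control mice 0 of 43 members were then at an unadjusted p under 0.05. Of all genes 2.02% were, against 23.8% without the term. After adjustment 0 members passed (0.0177% of all genes). The median fold change of the members was -0.01 with this term. In that model the state is estimated from the cre-virus libraries, since the control-virus libraries hold it in 1 treatment only. With each library's GC trend as a term these values were 0 (2.73% of all genes), 0 and 0.02. That trend was computed from these same counts. It was positive in each ctrl_vehicle library and negative in each ctrl_AA14 library, so in control mice it cannot be told apart from the treatment. Properties of 37 members, which are not independent replicates, were set against the AA14 fold change in control mice without these terms. Spearman's rho was -0.04 with transcript GC, 0.15 with gene span, 0.33 with exon length and 0.55 with the number of exons. The lower set of 11 had a median GC of 56.7% and span of 105.0 kb, and the higher set of 8 had 55.1% and 114 kb. Of the lower set's 11 promoter windows 63.6% held the GC box, as did 57.1% of the 7 windows of the higher set.

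In cre-virus mice the median collagen fold change with AA14 lay near 0. In edgeR 0 of 43 members passed (0.0% of all genes did), and 0 were at an unadjusted p under 0.05, against 2.29% of all genes. Limma-voom and DESeq2 called no member either. The median fold change was -0.03 (all genes -0.0020), with 24 members negative. Each of the 2 groups held 1 library rich in Malat1. Fold changes for the genes above were -0.19 ± 0.28 for Col1a2, -0.03 ± 0.35 for Col4a1, 0.20 ± 0.54 for Col4a3, -0.02 ± 0.45 for Col4a4, 0.00 ± 0.61 for Col6a2 and 0.19 ± 0.50 for Col23a1. Col26a1 at -0.81 ± 0.48 and Col4a6 at -0.50 ± 0.32 had the smallest unadjusted p among lower members (0.118 and 0.142). Their groups did not overlap, but the share of all genes without overlap was not computed for this comparison, so nothing is read from it. Without cre_vehicle replicate 1, the Malat1-rich library of its group, 4 members were at an unadjusted p under 0.05, or 9.3% against 6.19% of all genes.

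**Figure D4:**
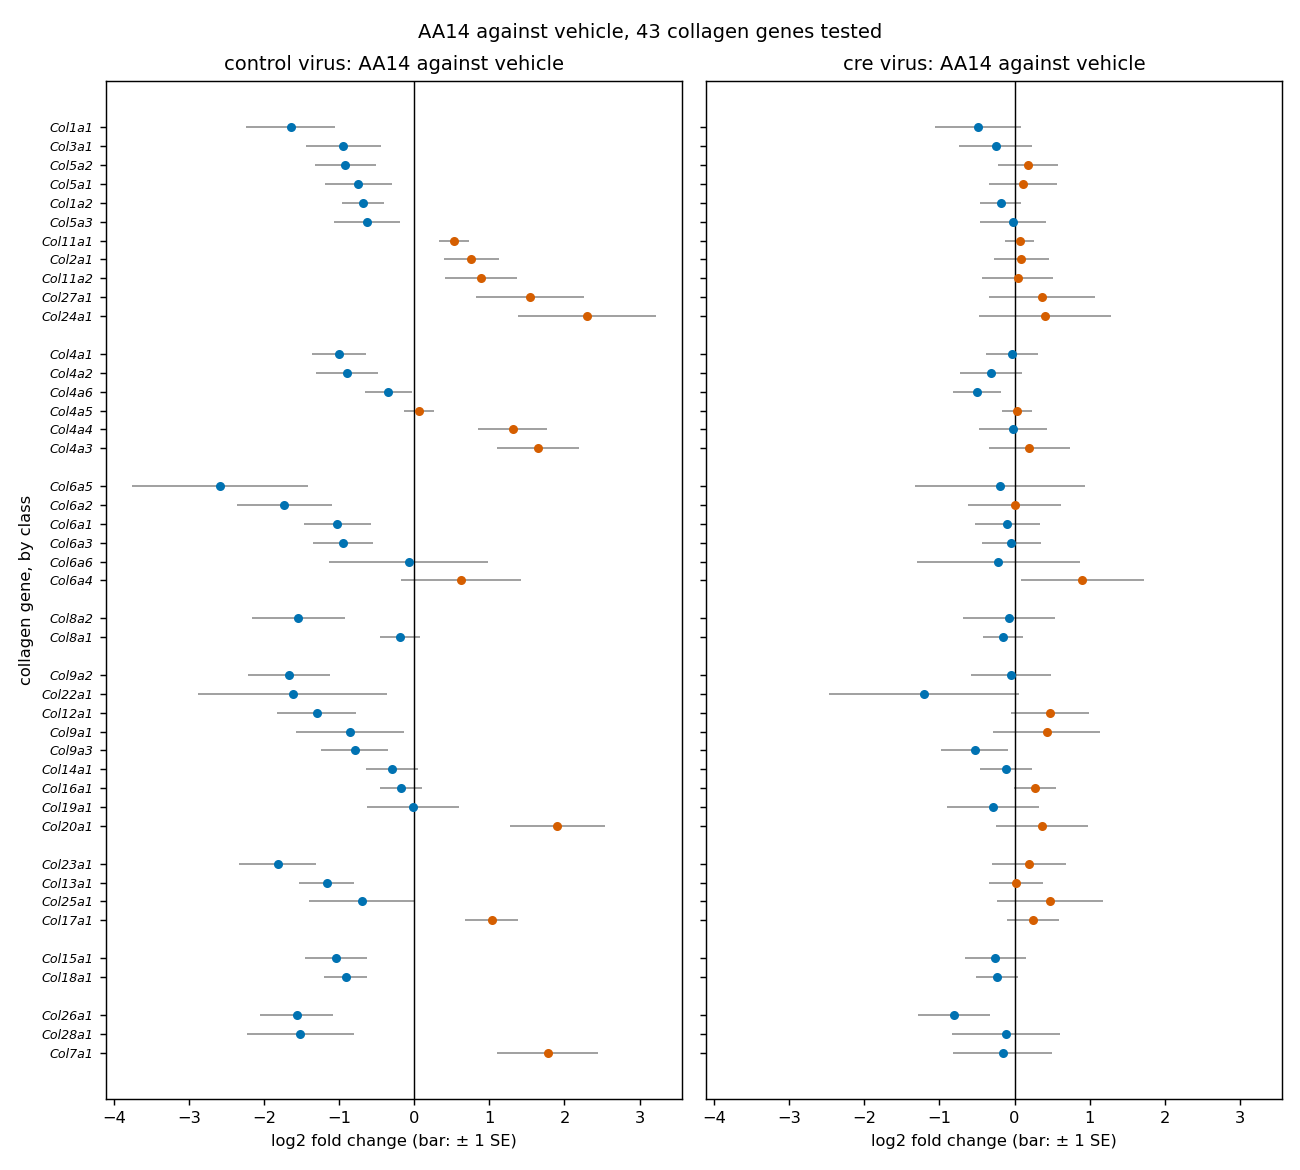
Log2 fold change of AA14 against vehicle for the 43 collagen genes tested, in control-virus mice and in cre-virus mice, with bars of 1 SE. The median is -0.75 in the first panel and -0.03 in the second, and no gene passed the adjusted threshold in either.

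Whether AA14 acted differently in the 2 kinds of mice was tested as an interaction, the fold change in cre-virus minus that in control-virus mice. In edgeR 0 of 43 members passed, against 0.00442% of all genes, and 3 were at an unadjusted p under 0.05, or 6.98% against 7.03% of all genes. They were Col23a1 with a difference of 2.02 ± 0.71, Col12a1 with 1.77 ± 0.74 and Col13a1 with 1.19 ± 0.51, each with an adjusted p of 0.631 in edgeR. The smallest unadjusted p in the other direction were those of Col7a1 (-1.93 ± 0.93), Col4a4 (-1.32 ± 0.65) and Col4a3 (-1.45 ± 0.77). The median over members was 0.59, against 0.03 over all genes. All 3 ctrl_AA14 libraries and 1 library of each cre-virus group were Malat1-rich, and no ctrl_vehicle library was. With the Malat1 term the median over members was -0.07 and with the GC term 0.001, against 0.03 over all genes in each. Leaving out single libraries moved the count of 3 to between 1 and 15. The highest, without cre_AA14 replicate 2, was 34.9% of members against 17.2% of all genes, and without cre_vehicle replicate 2 the count was 8, or 18.6% against 10.2%.

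Cre against control virus under vehicle left the collagen genes close to their background. No member of 43 passed in edgeR (0.00442% of all genes), and 1 was at an unadjusted p under 0.05 (2.0% of all genes). That gene was Col28a1 with -2.08 ± 0.73, which rests on the ctrl_vehicle library described above. Col5a3 at -0.95 ± 0.44 has its highest value in that library as well. The largest positive value, 0.92 ± 0.46, was that of Col4a4, followed by Col4a3 at 0.81 ± 0.54. The latter was -0.02 without cre_vehicle replicate 1. Under AA14, 0 of 43 members passed in edgeR (0.0% of all genes) and 9 were at an unadjusted p under 0.05, or 20.9% against 8.52% of all genes. All 9 were higher with cre, namely Col13a1 (1.20 ± 0.37), Col18a1 (0.82 ± 0.28), Col4a1 (1.02 ± 0.35), Col23a1 (1.42 ± 0.51), Col12a1 (1.48 ± 0.53), Col6a2 (1.55 ± 0.63), Col9a2, Col6a1 and Col1a1. Col4a1 and Col12a1 alone of these had groups without overlap, and the share of all genes without overlap was not computed for this comparison. The count was 18 without cre_AA14 replicate 2, or 41.9% against 18.8% of all genes, and 2 without cre_AA14 replicate 3, or 4.65% against 4.61%. It was 4 without cre_AA14 replicate 1 (9.3% against 2.62%). It was 5, 4 and 3 without ctrl_AA14 replicates 1, 2 and 3 (11.6%, 9.3% and 6.98%, against 5.44%, 5.89% and 3.08%). With the Malat1 or the GC term the count was 0, where 1.91% and 3.04% of all genes were at that p. Limma-voom had 28 members at an unadjusted p under 0.05, or 65.1% against 26.0% of all genes, and none past the adjusted threshold. This comparison shares the ctrl_AA14 libraries with the AA14 comparison in control mice, and the values are given side by side without a measure of likeness.

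Genes that modify, process, bind or degrade collagen were read from lists set apart from the members. None passed in edgeR in either AA14 comparison. Of all genes tested, 8.03% were higher and 15.8% lower at an unadjusted p under 0.05 for AA14 in control mice. At an unadjusted p under 0.05 for AA14 in control mice stood 4 higher and 6 lower of 20 genes for modification and folding, 1 and 5 of 12 for processing and crosslinking, and 0 and 2 of 10 receptors. For degradation the counts were 0 higher and 3 lower of 11 genes, for basement membrane partners 1 and 6 of 15, and for fibril partners 0 and 4 of 12. P4hb, a subunit of prolyl 4-hydroxylase, had a fold change of -0.15 ± 0.16, while the catalytic subunit P4ha1 had 0.54 ± 0.17. Loxl1, a crosslinking enzyme, was at 58.8, 47.6 and 45.4 CPM in ctrl_vehicle and 25.3, 30.6 and 27.2 in ctrl_AA14. Ddr1, a collagen receptor kinase, was at 143, 145 and 159 CPM in ctrl_vehicle and 69.3, 65.2 and 41.1 in ctrl_AA14, and Itgb1, a chain of the collagen-binding integrins, had a fold change of 0.02 ± 0.15. Timp2 and Mmp14, an inhibitor and a membrane protease of matrix turnover, had fold changes of -1.74 ± 0.47 and -1.62 ± 0.43, each with an adjusted p of 0.141 in edgeR. For Loxl1, Ddr1, Timp2 and Mmp14 the 5 Malat1-rich libraries lay below all others. Their Mmp14 values were 12.2 to 18.7 CPM against 37.5 to 49.8. Lamc1, a laminin chain of the basement membrane, was at 42.9, 45.3 and 39.6 CPM in ctrl_AA14 and 45.5, 53.4 and 60.6 in ctrl_vehicle, without overlap, with a fold change of -0.32 ± 0.22. Agrn, the heparan sulfate proteoglycan agrin, had overlapping groups and a fold change of -0.31 ± 0.21. Sparc, a collagen-binding protein, was at 1258 CPM in ctrl_vehicle replicate 3 and 565 CPM in cre_vehicle replicate 2, and between 73.0 and 151 CPM in the other 10 libraries.

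Markers of the cells that could supply collagen RNA were read beside the collagens. In bulk RNA, fewer cells of a type and less RNA per cell cannot be told apart. The 8 fibroblast markers summed to 241 to 315 CPM in the 5 Malat1-rich libraries and to 247 to 351 CPM in the others, and Dcn, the most abundant, had a fold change of -0.05 ± 0.18 for AA14 in control mice. Of these 8 markers, 4 were at an unadjusted p under 0.05, all lower. At this cut 15.8% of all genes tested were lower and 8.03% higher, shares to be read beside each marker count below. The 9 mural markers summed to 256 to 285 CPM against 127 to 268, with Rgs5 at 207 to 236 CPM against 71.2 to 172 which carried most of the sum. Pdgfrb had the opposite direction at 8.05 to 10.7 against 12.2 to 25.5. For AA14 in control mice 7 of the 9 had negative fold changes, with a median of -0.89, and 4 were lower and 0 higher at an unadjusted p under 0.05. The 8 endothelial markers summed to 147 to 188 CPM against 167 to 229. For AA14 in control mice 3 were higher and 2 lower at an unadjusted p under 0.05. Emcn was higher (45.0 to 51.2 CPM against 20.9 to 38.2) and Plvap lower (20.5 to 36.2 against 55.5 to 98.6). Of the 7 markers of stem and folliculostellate cells, 6 had negative fold changes for AA14 in control mice, with a median of -1.66, and 3 were lower and 1 higher at an unadjusted p under 0.05. Sox2 was at 10.2 to 15.7 CPM in the 5 libraries and 31.4 to 59.1 in the others. The 7 summed to 319 to 398 CPM against 305 to 521, a sum carried by Cyp2f2, which had the opposite sign. Of 6 pituicyte markers other than Col25a1, 5 had negative fold changes, with a median of -0.74. Genes induced by dissociation summed to 6080 CPM in cre_AA14 replicate 1 and to 198 to 1691 CPM in the other 11 libraries. The 10 oligodendrocyte markers summed to 80.6 to 802 CPM against 121 to 3429. Avp and Oxt, transcripts of axons in the posterior lobe, summed to 6.38 to 9.92 CPM in the 5 libraries and to 26.7 to 398 CPM in the others. The part of these markers, of Malat1 and of the GC trend in the collagen levels was not tested beyond the models given above.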

How the data were processed

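RNA was measured in 12 libraries, 3 in each of 4 groups taken from the sample titles. TRIzol extraction, the NEBNext Ultra RNA kit, paired-end NovaSeq sequencing and mapping by hisat2 2.0.0 are stated per the labels' protocols. Per the submitters' processing notes, HISAT, featureCounts 1.5.0-p3, DESeq 1.8.3 and the build GRCm38 were used. The authors deposited raw counts per gene. The sources used here do not give the annotation release, the strand setting or how shared reads were treated, which leaves overlapping genes uncertain. IDs with no symbol (267) held at most 0.0135% of a library and stayed in the tables.

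Counts were fitted in edgeR 4.0.16 (R 4.3.3) with filterByExpr (22630 genes kept), TMM factors, 1 mean per group over 12 libraries, quasi-likelihood F tests and Benjamini-Hochberg adjustment over all genes at 0.05. Each SE was obtained from F, as the size of the log2 fold change over F's square root. The common biological coefficient of variation was 0.445. On simulated counts for AA14 in control mice over 21919 genes, the fit recovered 11.9% of 67 genes at a 2-fold change, 70.1% of 67 at 4-fold and 87.9% of 66 at 8-fold, with 6 false calls. Exon lengths and positions are from GENCODE M21. Alternatives were other scalings, no filter, only the groups compared, a GC term, a replicate block, limma-voom (limma 3.58.1), DESeq2 1.42.0 and leaving out libraries. Members with values in every library are the leading genes of each class, the 3 of smallest p per direction and comparison and the 5 of widest range, at a mean of 1 CPM or more, 28 in all. The members, lists and rules were chosen with earlier results of these data known. The Malat1 term was chosen after seeing the data.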

Additional observations from a re-analysis of the deposited data

How the results depend on the processing

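The count of collagen genes past the threshold was 0 in all 5 comparisons and stayed 0 under every alternative except for AA14 in control mice, where it was 10 with only the groups compared, 11 in limma-voom and 13 in DESeq2. Over all genes, that comparison gave 1 gene in the edgeR test used throughout, 2266 with only the groups compared, 3409 in limma-voom, 2299 in DESeq2, 2 without the filter, 4 with the Malat1 term, 2 without the libraries rich in oligodendrocyte genes and 1 to 5 without single libraries. AA14 in cre-virus mice gave 0 genes, 14 in DESeq2, 1 without the oligodendrocyte-rich libraries and 0 to 2 without single libraries. The difference gave 1 gene, 26 in DESeq2, 0 in limma-voom, 2 with the GC term, 4 with the Malat1 term, 3 without the oligodendrocyte-rich libraries and 1 to 3 without single libraries. Cre under vehicle gave 1 gene, 19 in DESeq2, 2 in limma-voom, with DESeq2-type size factors and with the GC term, 3 with the Malat1 term or without the oligodendrocyte-rich libraries, and 1 to 3 without single libraries. Cre under AA14 gave 0 genes, 34 in DESeq2, 1 with only the groups compared, 2 with the GC or Malat1 term and 0 to 1 without single libraries. The cause of these changes was not tested.

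Among the 28 genes of the naming rule, 903 alternative values kept their direction and side of the threshold, 31 passed it in the same direction and 32 reversed. For AA14 in control mice, the Malat1 term reversed Col16a1 (0.43), Col1a2 (0.18), Col24a1 (-0.15), Col25a1 (0.51), Col27a1 (-0.24) and Col3a1 (0.44). The same term reversed Col4a1 (0.12), Col4a2 (0.41), Col4a4 (-0.075), Col6a1 (0.27), Col6a2 (0.33) and Col7a1 (-0.21). Outside the rule it reversed Col1a1 (0.19), Col15a1 (0.17) and Col11a2 (-0.32), among others. The GC term reversed Col16a1 (0.43), Col25a1 (0.87), Col4a2 (0.20), Col4a6 (0.18), Col5a3 (0.20), Col8a2 (0.016) and Col9a3 (0.081). Without the oligodendrocyte-rich libraries Col28a1 was 0.38 and Col5a3 0.30, and leaving out single libraries gave -1.97 to 0.038 for Col28a1, -0.58 to 0.011 for Col4a6 and -0.92 to 0.062 for Col5a3, each highest without ctrl_vehicle replicate 3. In cre-virus mice Col16a1 ranged from -0.17 without cre_AA14 replicate 1 to 0.48. With the Malat1 term the difference between the AA14 effects was 0.24 for Col4a3, 0.065 for Col4a4 and 0.16 for Col7a1. For cre under vehicle, Col4a3 ranged from -0.019 without cre_vehicle replicate 1 to 1.13. For cre under AA14, Col20a1 was 0.19 and Col24a1 0.38 with the Malat1 term, and Col24a1 was 0.10 with the GC term.

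Whether replicate numbers pair the libraries cannot be told from the counts. Of 18 pairs with the same number, 6 had a correlation of deviations over 0.1 (range -0.52 to 0.34). Pairs of unlike number ranged from -0.49 to 0.63. With the replicate block the 5 comparisons gave 1, 0, 1, 1 and 0 genes, and 0 collagen genes. Depth limits the 7 members below 1 CPM, and 3 libraries a group limit the rest.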
